A study of Mus musculus with 37 samples.

Results

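Carbacyclin was compared with its solvent, DMSO, in mouse pre-B leukemia cells carrying an empty vector. The comparison used the 4 libraries titled MIG-Carbacyclin and the 4 titled MIG-DMSO, chosen by title alone, which are 8 of the 37 RNA sequencing libraries of the series. All 35290 genes of the files were considered, and 15699 had enough counts to be tested. Every group consisted of pre-B cells that derive from marrow of adult Arf-/- mice (strain C57BL/6) and grow under BCR-ABL1, which is the tyrosine kinase fusion of Philadelphia chromosome leukemia. MIG is a retroviral vector that expresses green fluorescent protein and carries no added gene in these cells. Carbacyclin was given at 1 µM. The same compound was also given to cells whose vector expressed IK6, a dominant-negative isoform of the lymphoid transcription factor IKAROS (3 libraries with carbacyclin and 4 with DMSO), and MIG cells were also given 1 µM of the fatty acid amide N-oleoylethanolamine (NOE, 4 libraries). The sources used here state neither how long the cells were treated nor how many cultures were transformed independently. The p-values below therefore reflect only how libraries vary, which may be technical. Their spread was estimated over all 37 libraries in 10 groups, which also hold cells given ATRA or bexarotene, and not from the compared libraries alone. A gene-level count of Cdkn2a does not check the Arf deletion, because that locus also encodes another protein.

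Carbacyclin is a chemically stable analog of prostacyclin, a short-lived lipid made from arachidonic acid. Prostacyclin binds the receptor encoded by Ptgir, which couples through a stimulatory G protein to adenylyl cyclase. The cyclic AMP that is made activates protein kinase A and the transcription factor CREB, and a set of early genes follows, among them Crem, Pde4b and the Nr4a receptors. Carbacyclin is also known as a ligand of the nuclear receptor PPAR delta, whose target genes direct fatty acids into mitochondria. Pre-B cells are the stage of B lymphocyte development at which the immunoglobulin heavy chain is displayed with the surrogate light chain and V(D)J recombination of the light chain begins.

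Total counts per library overlapped between the groups. They ran from 18521726 to 69016668 with carbacyclin and from 29393905 to 47969941 with DMSO. In each group 1 library stood apart: ribosomal protein genes took 15.5% of counts in carbacyclin replicate 4 and 15.4% in DMSO replicate 3, against 7.33 to 9.40% in the other carbacyclin libraries and 9.30 to 9.87% in the other DMSO libraries. These and a library of MIG cells given bexarotene, another compound of the series, are the 3 libraries of high ribosomal protein share that are left out where stated below. Mitochondrially encoded genes took 2.41 to 2.61% of counts with carbacyclin and 2.01 to 2.12% with DMSO (exact two-sided permutation p = 0.0286, the smallest that 4 against 4 allows, and 0.0858 adjusted over 9 such values per library). Levels are CPM, counts scaled to 1000000 per library after normalization, and means are given ± SD over 4 libraries unless another n is stated. Levels of different genes are not compared, since CPM does not correct for gene length. Differences are log2 of carbacyclin over DMSO with their standard error, tested with edgeR's quasi-likelihood test and adjusted by Benjamini-Hochberg over all genes tested. A gene is said to rise or fall where the adjusted p was below 0.05.

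Carbacyclin changed the level of 7536 genes, 48% of those tested, with 3878 higher (24.7%) and 3658 lower (23.3%). With only the 8 libraries of these groups in the fit, below called the 2-group fit, the count was 4521, of which 2150 were higher and 2371 lower. The median difference over all tested genes was 0.02 on the log2 scale. Of the changed genes, 1827 (11.6% of those tested) differed by at least 2-fold, 766 of them higher (4.88%) and 1061 lower (6.76%). The 4 carbacyclin libraries lay wholly above the 4 DMSO libraries for 15.7% of tested genes and wholly below for 16.8%. The first principal component of the 1000 most variable genes held 76.3% of their variance and parted every carbacyclin library from every DMSO library. The second held 13.4% and set carbacyclin replicate 4 and DMSO replicate 3 apart from the rest. The counts that follow for groups of genes in MIG cells against DMSO are to be read against 24.7% higher and 23.3% lower.

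**Figure D1:**
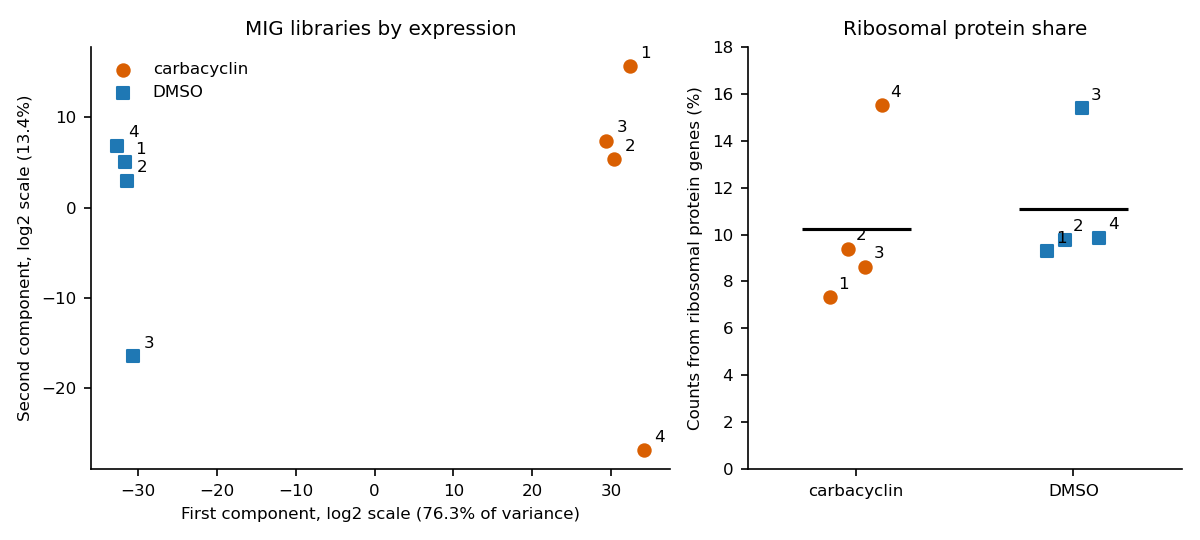
Left, the first and second principal components (log2 scale, 1000 most variable tested genes) of the 4 carbacyclin libraries (circles) and the 4 DMSO libraries (squares), numbered by replicate; right, the share of counts from ribosomal protein genes in percent per library, with the group mean as a line. The groups part along the first component, which holds 76.3% of the variance, while carbacyclin replicate 4 and DMSO replicate 3 sit apart on the second component and have shares of 15.5% and 15.4%.

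The receptor for prostacyclin was barely detected. Ptgir (ENSMUSG00000043017) measured 0.262, 0.0870, 0.151 and 0.0956 CPM with carbacyclin, against 0.353, 0.297, 0.666 and 0.339 CPM with DMSO. All 4 carbacyclin libraries lay below all 4 DMSO libraries, and the gene fell (log2 difference -1.60 ± 0.30 (SE), adjusted p = 4.38e-05). Ptger4 (ENSMUSG00000039942), a prostaglandin E2 receptor that also couples to adenylyl cyclase, was measured at 109 ± 3.24 CPM with carbacyclin and 111 ± 2.41 CPM with DMSO, and Ptger2 (ENSMUSG00000037759), the other such receptor, at 6.82 ± 0.986 CPM with carbacyclin and 7.38 ± 0.519 CPM with DMSO. Their log2 differences were -0.02 ± 0.037 and -0.11 ± 0.093 (95% interval -0.10 to 0.05 for Ptger4 and 95% interval -0.30 to 0.08 for Ptger2), and neither passed the test. Ptger1 (ENSMUSG00000019464), a calcium-coupled prostaglandin E2 receptor, rose to 98.05 CPM with carbacyclin, against 74.99 CPM with DMSO (0.39 ± 0.08). Tbxa2r (ENSMUSG00000034881), the thromboxane receptor, rose more, with 15.7, 16.3, 16.03 and 21.8 CPM with carbacyclin, against 3.63, 4.87, 6.11 and 4.61 CPM with DMSO and no overlap (log2 difference 1.87 ± 0.14 (SE), adjusted p = 1.27e-12). Between carbacyclin and NOE neither Ptger1 (0.11 ± 0.08, adjusted p = 0.258) nor Tbxa2r (0.06 ± 0.13, adjusted p = 0.719) passed. Ptger3 (ENSMUSG00000040016), a receptor that lowers cyclic AMP, had 1 count in the carbacyclin libraries together and 5 in the DMSO libraries (ratio 0.161, exact 95% binomial interval 0.0034 to 1.44).

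Among the enzymes of prostanoid metabolism, Ptgs1 (ENSMUSG00000047250), the constitutive cyclooxygenase, fell to 52.98 CPM with carbacyclin, against 93.3 CPM with DMSO (log2 difference -0.82 ± 0.058 (SE), adjusted p = 1.48e-13). Hpgds (ENSMUSG00000029919), which makes prostaglandin D2, fell by 1.21 on the log2 scale, and Tbxas1 (ENSMUSG00000029925), thromboxane synthase, rose by 1.67 at levels below 1 CPM. Ptgr1 (ENSMUSG00000028378), which reduces and inactivates eicosanoids, rose (0.60 ± 0.11), as did Ptges3 (ENSMUSG00000071072), a co-chaperone with prostaglandin E synthase activity (0.19 ± 0.076). Ptges2 (ENSMUSG00000026820) (0.40 ± 0.19), Ptges (ENSMUSG00000050737) (0.35 ± 0.51), Slco2a1 (ENSMUSG00000032548), the prostaglandin transporter (-0.61 ± 0.35), and Abcc4 (ENSMUSG00000032849), an exporter of prostanoids and cyclic AMP (0.04 ± 0.06), did not pass. The remaining listed genes were too low to test: Ptgs2, Hpgd and Ptgfr had 0 counts in both groups, Ptgdr had 1 with carbacyclin and 3 with DMSO, Gpr44 had 13 with carbacyclin and 12 with DMSO, and Ptgis had 8 with carbacyclin and 4 with DMSO. In all, 5 of 15 tested prostanoid genes rose and 3 fell. Ptges3 did not pass without carbacyclin replicate 4 (0.10), DMSO replicate 2 (0.16) or DMSO replicate 4 (0.15), nor in the 2-group fit (adjusted p = 0.214), and Ptges2 passed without carbacyclin replicate 1 (0.51) or DMSO replicate 3 (0.64).

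Differences were small for most genes of the machinery that makes and reads cyclic AMP. Of 27 tested genes, 5 rose, 4 fell and the median difference was -0.03. Adcy6 (ENSMUSG00000022994), an adenylyl cyclase, rose (0.86 ± 0.15), as did Adcy3 (ENSMUSG00000020654) (0.46 ± 0.086), the regulatory subunit Prkar1a (ENSMUSG00000020612) (0.34 ± 0.06), the CREB coactivator Crtc1 (ENSMUSG00000003575) (0.72 ± 0.11) and the kinase anchor Akap1 (ENSMUSG00000018428) (0.37 ± 0.042). The largest fall was that of Prkar1b (ENSMUSG00000025855), another regulatory subunit, at low level (0.248 ± 0.0346 CPM with carbacyclin and 1.12 ± 0.238 CPM with DMSO). Gnai1 (ENSMUSG00000057614), an inhibitory G protein subunit, fell to 1.71 CPM with carbacyclin, against 6.56 CPM with DMSO (log2 difference -1.93 ± 0.12 (SE), adjusted p = 3.09e-15). Rapgef3 (ENSMUSG00000022469), the cyclic AMP sensor EPAC1, fell by 0.54 on the log2 scale and the catalytic subunit Prkacb (ENSMUSG00000005034) by 0.13. The stimulatory subunit Gnas (ENSMUSG00000027523) (-0.05 ± 0.11), Creb1 (ENSMUSG00000025958) itself (-0.21 ± 0.094) and the catalytic subunit Prkaca (ENSMUSG00000005469) (0.08 ± 0.073) did not pass, and the other 15 tested genes of the list, among them Adcy7, Adcy9, Atf1, Crtc2, Crebbp and Ep300, did not either, with log2 differences between -0.39 for Akap9 (ENSMUSG00000040407) and 0.23 for Crebbp (ENSMUSG00000022521). Without the libraries of high ribosomal protein share 8 members of the list rose. Of the members given here with a value, 3 more passed when a single library was left out: Creb1 (-0.30 without carbacyclin replicate 1, -0.27 without DMSO replicate 3), Akap9 (-0.56 and -0.54 without the same libraries) and Crebbp (0.42 without carbacyclin replicate 4).

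Genes known to respond to cyclic AMP and CREB changed in both directions. 13 of 25 tested members rose and 7 fell, with a median difference of 0.33 beside 0.02 over all genes. Crem (ENSMUSG00000063889), the CREB-family gene that encodes the inducible repressor ICER, measured 62.8, 65.1, 67.1 and 88.1 CPM with carbacyclin, against 12.1, 10.5, 11.2 and 11.1 CPM with DMSO. Every carbacyclin library was above every DMSO library (log2 difference 2.66 ± 0.081 (SE), adjusted p = 5.66e-23). Pde4b (ENSMUSG00000028525), a phosphodiesterase that degrades cyclic AMP, showed 209, 209, 197 and 198 CPM with carbacyclin, against 62.9, 61.1, 60.8 and 56.1 CPM with DMSO (log2 difference 1.75 ± 0.054 (SE), adjusted p = 6.75e-23). Pde3b (ENSMUSG00000030671), another phosphodiesterase, rose to 190.5 CPM with carbacyclin, against 86.4 CPM with DMSO (log2 difference 1.14 ± 0.083 (SE), adjusted p = 2.55e-13). The salt-inducible kinase Sik1 (ENSMUSG00000024042), a brake on CREB coactivators, rose (0.85 ± 0.065), and so did Btg2 (ENSMUSG00000020423), an antiproliferative early gene (1.05 ± 0.08), Fos (ENSMUSG00000021250) (1.18 ± 0.19), Fosb (ENSMUSG00000003545) (0.74 ± 0.28), Nr4a1 (ENSMUSG00000023034) (0.34 ± 0.11), Nr4a3 (ENSMUSG00000028341) (1.59 ± 0.35), Cebpb (ENSMUSG00000056501) (1.06 ± 0.29), Gem (ENSMUSG00000028214) (0.39 ± 0.063), Dusp1 (ENSMUSG00000024190) (0.36 ± 0.15) and Pde4d (Pde4d.13.p) (0.30 ± 0.086).

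The 7 members that fell were Rgs1 (ENSMUSG00000026358), a regulator of G protein signaling (1.94 ± 0.550 CPM with carbacyclin and 6.00 ± 0.278 CPM with DMSO), its relatives Rgs16 (ENSMUSG00000026475) (-0.78 ± 0.16) and Rgs2 (ENSMUSG00000026360) (-0.56 ± 0.12), the growth factor gene Areg (ENSMUSG00000029378) (-1.07 ± 0.27), the stress factor Atf3 (ENSMUSG00000026628) (-0.89 ± 0.12), Per2 (ENSMUSG00000055866) (-0.46 ± 0.10) and Pde10a (ENSMUSG00000023868) (-0.23 ± 0.07). Nr4a2 (ENSMUSG00000026826) (-0.36 ± 0.15), Per1 (ENSMUSG00000020893) (-0.24 ± 0.11), Junb (ENSMUSG00000052837) (-0.08 ± 0.15), Pde4a (ENSMUSG00000032177) (0.16 ± 0.11) and Ppargc1a (ENSMUSG00000029167) (0.33 ± 0.42) did not pass. Within the list, size differed widely: Crem, Pde4b, Nr4a3, Fos, Pde3b, Cebpb and Btg2 were more than 2-fold higher and Rgs1 and Areg more than 2-fold lower, whereas Nr4a1 and Dusp1 differed by 0.34 and 0.36 on the log2 scale. Dusp1 did not pass without any one of 5 libraries (carbacyclin replicates 2 and 4, DMSO replicates 1, 2 and 4, with differences of 0.23 to 0.37), nor did Fosb without carbacyclin replicate 1 (0.64), carbacyclin replicate 2 (0.59) or DMSO replicate 3 (0.66). Neither passed in the 2-group fit (adjusted p = 0.16 for Dusp1 and 0.0646 for Fosb), and Pde4d (0.103) and Pde10a (0.0829) did not pass there either. In the other direction Nr4a2 passed without carbacyclin replicate 1 (-0.44), carbacyclin replicate 2 (-0.42) or DMSO replicate 3 (-0.47), Per1 without carbacyclin replicate 2 (-0.31) or 3 (-0.33), and Pde4a without carbacyclin replicate 4 (0.26). In IK6 cells the differences were 2.20 ± 0.083 for Crem and 1.34 ± 0.057 for Pde4b, smaller than in MIG cells by 0.46 ± 0.11 and 0.41 ± 0.078 (adjusted p = 0.00691 and 0.000326 for the interaction). The interaction of Crem did not pass with only the 4 groups compared in the fit (adjusted p = 0.0709). Nr4a3 rose more in IK6 cells (3.99 ± 0.23, interaction -2.40 ± 0.47, adjusted p = 0.000552), and so did Gem (0.90 ± 0.067, interaction -0.51 ± 0.092, adjusted p = 0.000181). Atf3, which fell in MIG cells, rose in IK6 cells (0.47 ± 0.12, interaction -1.36 ± 0.17, adjusted p = 6.52e-07). These 5 of the 25 members passed the interaction test, which 8.83% of all tested genes passed.

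The cyclic AMP response element is the palindrome TGACGTCA, and its half-site TGACG can also bind CREB. RefSeq promoters of build GRCm38.p6, from 250 bases before to 50 after a start site, were searched on both strands, and 19 of the 25 members had one. The whole element was found in 3 of the 19 genes (15.8%), against 1.79% of all 32851 promoters and 2.03% of 27025 genes. The half-site, which the whole element contains, was in 16 of the 19 (84.2%), against 20.8% of promoters and 23% of genes. A match is a description of these letters only. The list was made of genes already known to respond to cyclic AMP and CREB, so its share says nothing about carbacyclin. Windows of 60 bases are shown for 3 members that rose and 1 that fell, Areg, with the matches in capitals, 5′ to 3′ on the strand of the gene. The window of Btg2 is chr1:134079288-134079347 on the minus strand, that of Pde4b chr4:102421493-102421552 on the plus strand, that of Nr4a3 chr4:48045055-48045114 on the plus strand and that of Areg chr5:91139512-91139571 on the plus strand.
Btg2: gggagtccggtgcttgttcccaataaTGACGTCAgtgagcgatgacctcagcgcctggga
Pde4b: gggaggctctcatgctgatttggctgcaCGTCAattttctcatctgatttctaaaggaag
Nr4a3: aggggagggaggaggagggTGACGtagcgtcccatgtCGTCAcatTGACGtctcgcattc
Areg: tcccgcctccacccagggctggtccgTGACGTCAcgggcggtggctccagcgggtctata
The whole element stood in the promoters of Btg2 and Dusp1, which rose, and of Areg, which fell. The window of Dusp1 is not shown, and Pde4b held a single half-site within 250 bases of this start site.

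**Figure D2:**
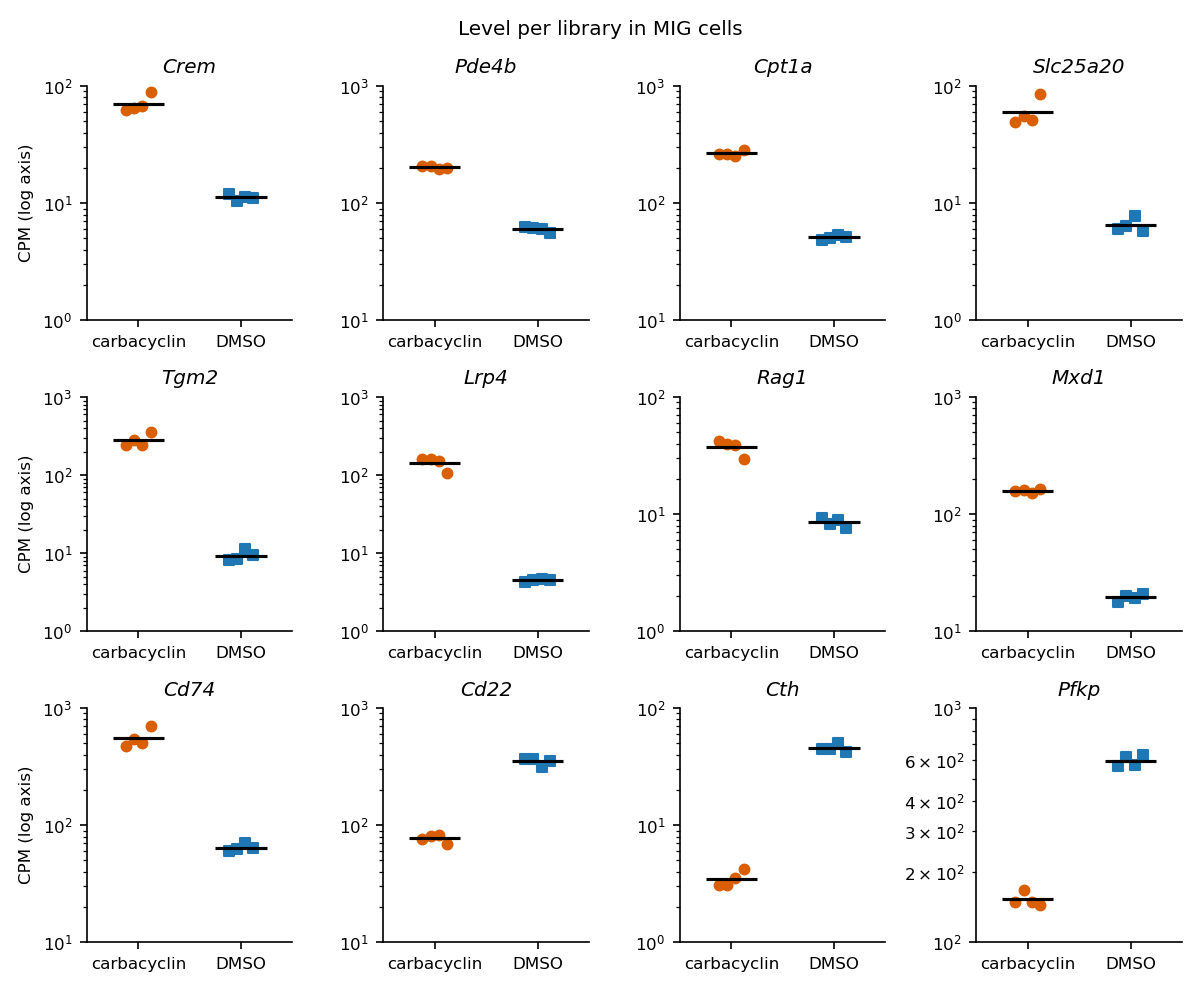
Level of 12 genes in each library, in CPM on a log axis with a separate scale per panel, for carbacyclin (left, circles) and DMSO (right, squares), with the group mean as a line. In each panel the 4 carbacyclin libraries lie wholly above (Crem, Pde4b, Cpt1a, Slc25a20, Tgm2, Lrp4, Rag1, Mxd1, Cd74) or wholly below (Cd22, Cth, Pfkp) the 4 DMSO libraries.

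PPAR target genes and genes of fatty acid oxidation were mostly higher with carbacyclin. 12 of 22 tested members rose and 3 fell, with a median of 0.23. Cpt1a (ENSMUSG00000024900), the carnitine palmitoyltransferase that commits long-chain fatty acids to mitochondria, measured 264, 263, 255 and 283 CPM with carbacyclin, against 48.9, 50.7, 53.5 and 51.9 CPM with DMSO. The spread within each group was small beside the gap between them (log2 difference 2.38 ± 0.051 (SE), adjusted p = 3.47e-27). Slc25a20 (ENSMUSG00000032602), the carnitine-acylcarnitine translocase that works next in the same path, showed 49.1, 55.1, 51.5 and 86.1 CPM with carbacyclin, against 6.00, 6.33, 7.80 and 5.79 CPM with DMSO (log2 difference 3.23 ± 0.12 (SE), adjusted p = 1.71e-20). Pdk4 (ENSMUSG00000019577), the pyruvate dehydrogenase kinase that spares glucose, had 0.942, 1.03, 0.929 and 0.924 CPM with carbacyclin, against 0, 0, 0 and 0 CPM with DMSO. It was thus at 161 counts in the carbacyclin libraries together and at 0 in the DMSO libraries, at least 43.2-fold higher when the floor is 3 counts over the DMSO group. Etfdh (ENSMUSG00000027809), which passes electrons from fatty acid oxidation to the respiratory chain, rose to 58.4 CPM with carbacyclin, against 27.6 CPM with DMSO (log2 difference 1.08 ± 0.049 (SE), adjusted p = 1.34e-18).

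Smaller rises were seen for the dehydrogenases Acadvl (ENSMUSG00000018574) (0.73 ± 0.083) and Acadm (ENSMUSG00000062908) (0.37 ± 0.062), the thiolase Acaa2 (ENSMUSG00000036880) (0.56 ± 0.17), the uncoupling protein Ucp2 (ENSMUSG00000033685) (0.79 ± 0.10), Angptl4 (ENSMUSG00000002289), a secreted inhibitor of lipoprotein lipase (0.50 ± 0.20), and Plin2 (ENSMUSG00000028494), a lipid droplet coat protein (0.38 ± 0.12). Not all of the list moved together. Cd36 (ENSMUSG00000002944), a fatty acid uptake receptor, fell to 1.33 CPM with carbacyclin, against 3.46 CPM with DMSO (-1.37 ± 0.15), as did the binding protein Fabp5 (ENSMUSG00000027533) (-0.43 ± 0.16) and Decr1 (ENSMUSG00000028223) (-0.36 ± 0.10). Without the libraries of high ribosomal protein share 5 members fell. Without carbacyclin replicate 4 alone the rises of Acaa2 (0.25), Angptl4 (0.22) and Plin2 (0.18) did not pass. Angptl4 also failed without DMSO replicate 1 (0.47), 2 (0.48) or 4 (0.42), and Fabp5 without carbacyclin replicate 1 (-0.33), 2 (-0.35) or 3 (-0.34) or DMSO replicate 3 (-0.27). In the 2-group fit Acaa2 (adjusted p = 0.16), Angptl4 (0.198), Plin2 (0.188), Fabp5 (0.216) and Decr1 (0.137) did not pass. Cpt2 (ENSMUSG00000028607), the partner of Cpt1a in the inner membrane, was measured at 17.7 ± 1.87 CPM with carbacyclin and 17.4 ± 1.76 CPM with DMSO and did not pass (0.03 ± 0.071). In IK6 cells 14 members rose and 0 fell, where 20.8% of all tested genes rose and 18.8% fell. The difference of Cpt1a there was 2.39 ± 0.054 (interaction -0.01 ± 0.072, adjusted p = 0.965). Angptl4 rose more in IK6 cells (2.58 ± 0.22, interaction -2.08 ± 0.29, adjusted p = 4.31e-06), and so did Plin2 (1.04 ± 0.13, interaction -0.66 ± 0.18, adjusted p = 0.0151), whose interaction did not pass without IK6 carbacyclin replicate 1 (-0.55) or with only the 4 groups in the fit (adjusted p = 0.137). The direct repeat AGGTCANAGGTCA, a strict form of the element that PPAR and RXR bind, was searched on both strands of the promoters and was in 0 of the 18 members that had one and in 0.0396% of all 32851 promoters of 300 bases. No match says only that these letters were not in this window.

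The genes of the receptors themselves gave a mixed picture, with 4 of 16 tested members higher and 7 lower. Ppard (ENSMUSG00000002250), which encodes PPAR delta, measured 35.7, 39.4, 37.01 and 35.5 CPM with carbacyclin, against 56.7, 57.6, 56.8 and 57.9 CPM with DMSO, without overlap (log2 difference -0.63 ± 0.10 (SE), adjusted p = 1.70e-06). Ppara had 0 counts with carbacyclin and 5 with DMSO, and Pparg had 3 with carbacyclin and 0 with DMSO. Rxra (ENSMUSG00000015846), the shared partner of many nuclear receptors, rose (0.65 ± 0.092), as did Nr1h2 (ENSMUSG00000060601), which encodes LXR beta (0.34 ± 0.11), Esrra (ENSMUSG00000024955) (0.49 ± 0.066) and Vdr (ENSMUSG00000022479), the vitamin D receptor (1.58 ± 0.19). Thrb (ENSMUSG00000021779), a thyroid hormone receptor, fell to 10.2 CPM with carbacyclin, against 27.8 CPM with DMSO (log2 difference -1.47 ± 0.089 (SE), adjusted p = 2.83e-15). Rora (ENSMUSG00000032238) fell by 1.15 on the log2 scale, and in IK6 cells it rose (0.78 ± 0.25, interaction -1.93 ± 0.33, adjusted p = 7.79e-05). The rise in IK6 cells did not pass without IK6 carbacyclin replicate 2 (0.49).

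Some genes of the retinoic acid and LXR lists rose steeply. Tgm2 (ENSMUSG00000037820), a transglutaminase, measured 241, 283, 246 and 356 CPM with carbacyclin, against 8.18, 8.45, 11.2 and 9.52 CPM with DMSO (log2 difference 4.92 ± 0.14 (SE), adjusted p = 5.05e-24). Tspan15 (ENSMUSG00000037031), a tetraspanin, rose to 12.8 CPM with carbacyclin, against 1.40 CPM with DMSO (log2 difference 3.21 ± 0.17 (SE), adjusted p = 4.55e-17), and Ngfr (ENSMUSG00000000120), the low-affinity neurotrophin receptor, rose at levels below 1 CPM (2.81 ± 0.40). Dhrs3 (ENSMUSG00000066026) (0.27 ± 0.12) and Rarb (ENSMUSG00000017491) (0.60 ± 0.30), both known as targets of retinoic acid receptors, did not pass, although Rarb did without DMSO replicate 1 (0.86), and Cyp26b1 had 3 counts with carbacyclin and 1 with DMSO. The list had 5 of 11 members higher and 3 lower. Of 15 LXR target genes, 6 rose and 4 fell. The cholesterol exporters Abcg1 (ENSMUSG00000024030) (107 ± 6.52 CPM with carbacyclin and 39.9 ± 1.28 CPM with DMSO, 1.43 ± 0.057) and Abca1 (ENSMUSG00000015243) (0.621 ± 0.252 CPM with carbacyclin and 0.0458 ± 0.0419 CPM with DMSO, 3.65 ± 0.44) rose, as did Mylip (ENSMUSG00000038175), the ubiquitin ligase that removes the LDL receptor (0.67 ± 0.043). Pltp (ENSMUSG00000017754), a phospholipid transfer protein, fell (-1.25 ± 0.13), and Fasn (ENSMUSG00000025153) (0.07 ± 0.082) and Srebf1 (ENSMUSG00000020538) (-0.17 ± 0.076) did not pass, although Srebf1 did without carbacyclin replicate 2 (-0.21) or 3 (-0.22). The difference of Abca1 was 4.24 without DMSO replicate 4.

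Cholesterol synthesis genes were lower. 15 of 23 members fell and 2 rose, with a median of -0.36. Lss (ENSMUSG00000033105), lanosterol synthase, fell to 79.9 CPM with carbacyclin, against 162 CPM with DMSO (log2 difference -1.02 ± 0.077 (SE), adjusted p = 6.99e-13). Hmgcs1 (Hmgcs1.NT_110857.n) (-0.84 ± 0.086), which the files list at another identifier too with near-identical counts, Acat2 (ENSMUSG00000023832) (-0.66 ± 0.077), Stard4 (ENSMUSG00000024378) (-0.64 ± 0.077) and Sc5d (ENSMUSG00000032018) (-0.43 ± 0.044) fell. Ebp (ENSMUSG00000031168) was among those that rose (0.55 ± 0.13), though not in the 2-group fit (adjusted p = 0.0749). Without the libraries of high ribosomal protein share 1 member rose.

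Genes of the integrated stress response fell without exception. The 22 members are Atf4 itself and genes that ATF4 is known to drive when amino acids are short or proteins misfold. All 22 fell, 19 of them without overlap between libraries, and the median difference was -1.17. Cth (ENSMUSG00000028179), cystathionine gamma-lyase, measured 3.09, 3.10, 3.57 and 4.20 CPM with carbacyclin, against 44.4, 44.8, 50.6 and 41.9 CPM with DMSO (log2 difference -3.70 ± 0.10 (SE), adjusted p = 5.43e-24). Gpt2 (ENSMUSG00000031700), a mitochondrial alanine transaminase, showed 7.01, 7.14, 8.73 and 9.37 CPM with carbacyclin, against 55.3, 53.8, 55.6 and 53.3 CPM with DMSO (log2 difference -2.75 ± 0.071 (SE), adjusted p = 5.92e-25). Pycr1 (ENSMUSG00000025140), of proline synthesis, fell to 7.35 CPM with carbacyclin, against 49.9 CPM with DMSO (log2 difference -2.76 ± 0.091 (SE), adjusted p = 3.34e-22), and Cars (ENSMUSG00000010755), a cysteinyl-tRNA synthetase, to 47.3 CPM with carbacyclin, against 124 CPM with DMSO (-1.40 ± 0.049). Others that fell by more than 2-fold were Nupr1 (ENSMUSG00000030717), a small chromatin-associated stress protein (-3.69 ± 0.14), Vldlr (ENSMUSG00000024924), a lipoprotein receptor (-2.81 ± 0.11), Chac1 (ENSMUSG00000027313), which degrades glutathione (-2.55 ± 0.11), Asns (ENSMUSG00000029752), asparagine synthetase (-2.09 ± 0.11), Mthfd2 (ENSMUSG00000005667) of mitochondrial folate metabolism (-1.72 ± 0.071), Trib3 (ENSMUSG00000032715), a pseudokinase that restrains ATF4 (-1.56 ± 0.10), and Sesn2 (ENSMUSG00000028893) (-1.35 ± 0.071). Atf4 (ENSMUSG00000042406) itself fell least (204 ± 28.3 CPM with carbacyclin and 237 ± 19.9 CPM with DMSO, -0.22 ± 0.077), and its fall did not pass without carbacyclin replicate 1 (-0.14) or DMSO replicate 3 (-0.16), or in the 2-group fit (adjusted p = 0.151).

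The CARE element, which binds ATF4 with a C/EBP partner, has the core TGATGNAA. It was found in the promoters of 7 of the 18 members that had one (38.9%), against 3.97% of all promoters and 4.51% of genes. The list was made of Atf4 and its known targets, so such a share says nothing about carbacyclin. The part of ATF4 in the falls was not tested. The form TGATGCAA was in 5 of the 18 (27.8%), against 0.895% of promoters and 1.03% of genes. The 6 printed here belong to genes named above, with the match in capitals and each line 5′ to 3′ on the strand of the gene, in GRCm38.p6. They are Asns at chr6:7693199-7693258 on the minus strand, Chac1 at chr2:119351023-119351082 on the plus strand, Nupr1 at chr7:126625547-126625606 on the minus strand, Pycr1 at chr11:120643818-120643877 on the minus strand, Trib3 at chr2:152344013-152344072 on the minus strand and Vldlr at chr19:27216794-27216853 on the plus strand.
Asns: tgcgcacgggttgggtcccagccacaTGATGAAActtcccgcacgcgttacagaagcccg
Chac1: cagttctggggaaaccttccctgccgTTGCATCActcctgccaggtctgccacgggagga
Nupr1: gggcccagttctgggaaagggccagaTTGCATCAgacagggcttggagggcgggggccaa
Pycr1: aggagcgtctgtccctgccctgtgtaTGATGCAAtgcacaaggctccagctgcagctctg
Trib3: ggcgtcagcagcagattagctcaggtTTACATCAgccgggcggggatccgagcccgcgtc
Vldlr: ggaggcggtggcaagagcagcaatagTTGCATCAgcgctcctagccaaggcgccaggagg
In these 6 windows the match read TGATGCAA on one strand or the other in Chac1, Nupr1, Pycr1 and Vldlr, and had another base at the free position in Asns and Trib3. Gpt2, which also fell, had no match in its window, and Cth and Cars had no promoter entry.

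In IK6 cells 19 of the 22 members fell and none rose, on a background of 18.8% lower over all tested genes. The fall was larger in MIG cells for 16 of the 22 by the interaction test, where 5.66% of all tested genes were more negative in MIG. Vldlr fell by 0.78 on the log2 scale in IK6 cells (interaction -2.03 ± 0.15, adjusted p = 2.60e-11), whereas Cth differed by -3.12 ± 0.11 there (interaction -0.58 ± 0.14, adjusted p = 0.00549, and 0.0633 with only the 4 groups in the fit). Genes of the endoplasmic reticulum chaperones and heat shock proteins went the other way from the stress response: 14 of 23 rose and 2 fell. Hspa5 (ENSMUSG00000026864), the chaperone BiP, rose to 828 CPM with carbacyclin, against 572 CPM with DMSO (0.53 ± 0.088). Hsph1 (ENSMUSG00000029657) (0.94 ± 0.063), Creld2 (ENSMUSG00000023272) (1.11 ± 0.10), Calr (ENSMUSG00000003814) (0.58 ± 0.075) and Hspa1b (ENSMUSG00000090877) (1.43 ± 0.17) rose too, while Herpud1 (ENSMUSG00000031770), a membrane protein of ER-associated degradation, fell (-0.61 ± 0.069). Hspa1b has a near-identical neighbour, Hspa1a, and their counts may be split between them.

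Glycolysis and hypoxia genes were lower with carbacyclin. 20 of 22 glycolysis and glucose uptake genes fell and 1 rose, with a median of -0.82. Pfkp (ENSMUSG00000021196), the platelet-type phosphofructokinase, measured 149, 167, 149 and 145 CPM with carbacyclin, against 564, 616, 569 and 629.8 CPM with DMSO (log2 difference -1.96 ± 0.075 (SE), adjusted p = 1.36e-20). Hk2 (ENSMUSG00000000628), hexokinase 2, showed 79.8, 82.4, 79.9 and 60.4 CPM with carbacyclin, against 182, 195, 170.1 and 204 CPM with DMSO (log2 difference -1.31 ± 0.10 (SE), adjusted p = 4.49e-13). Pfkm (ENSMUSG00000033065), the muscle-type phosphofructokinase, fell (-1.07 ± 0.06), as did the glucose transporters Slc2a1 (ENSMUSG00000028645) (-1.16 ± 0.10) and Slc2a3 (ENSMUSG00000003153) (-0.83 ± 0.10), the lactate exporter Slc16a3 (ENSMUSG00000025161) (-1.37 ± 0.15) and the enzymes Pgk1 (ENSMUSG00000062070) (-1.02 ± 0.14), Aldoa (ENSMUSG00000030695) (-0.95 ± 0.16), Tpi1 (ENSMUSG00000023456) (-1.06 ± 0.20), Pkm2 (ENSMUSG00000032294) (-0.87 ± 0.16) and Ldha (ENSMUSG00000063229) (-0.58 ± 0.18). Gapdh (ENSMUSG00000057666) was measured at 1642 ± 673 CPM with carbacyclin and 2103 ± 503 CPM with DMSO and did not pass (-0.36 ± 0.18), although it did without carbacyclin replicate 4 (-0.66). The fall of Ldha did not pass without carbacyclin replicate 3 (-0.44) or DMSO replicate 3 (-0.40), or in the 2-group fit (adjusted p = 0.173). The member that rose was Pfkfb3 (ENSMUSG00000026773), which makes the activator of phosphofructokinase (0.19 ± 0.049, and adjusted p = 0.064 in the 2-group fit).

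Of 20 hypoxia response genes, 16 fell and 2 rose, with a median of -0.77. Ndrg1 (ENSMUSG00000005125), a stress-responsive tumor suppressor, measured 7.33, 10.8, 10.3 and 12.7 CPM with carbacyclin, against 65.1, 74.6, 76.9 and 76.7 CPM with DMSO (log2 difference -2.82 ± 0.11 (SE), adjusted p = 2.85e-20). Ero1l (ENSMUSG00000021831), an oxidase of disulfide formation, showed 155, 154, 151 and 166 CPM with carbacyclin, against 557, 627, 574 and 674 CPM with DMSO (log2 difference -1.96 ± 0.10 (SE), adjusted p = 9.09e-17). Ak4 (ENSMUSG00000028527), a mitochondrial adenylate kinase (-1.84 ± 0.11), P4ha2 (ENSMUSG00000018906), a collagen prolyl hydroxylase (-2.49 ± 0.17), Egln3 (ENSMUSG00000035105), an oxygen-sensing hydroxylase (-1.22 ± 0.11), Bnip3l (ENSMUSG00000022051) (-1.13 ± 0.11) and Ankrd37 (ENSMUSG00000050914) (-0.94 ± 0.11) fell. The hormone gene Adm had 3 counts with carbacyclin and 60 with DMSO (ratio 0.0402, exact 95% binomial interval 0.00807 to 0.123). Hif1a (ENSMUSG00000021109) did not pass (-0.17 ± 0.071), although it did without carbacyclin replicate 1 (-0.21) or DMSO replicate 3 (-0.20), and Vegfa (ENSMUSG00000023951) rose (0.33 ± 0.08), though not in the 2-group fit (adjusted p = 0.0762).

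Hypoxia-inducible factors bind elements with the core ACGTG, which is also part of the E-box CACGTG. The core was in the promoters of 13 of 17 hypoxia genes (76.5%) and 14 of 21 glycolysis genes (66.7%) that had one, against 19.6% of all promoters and 21.8% of genes. Windows of genes that fell are shown for P4ha2 at chr11:54100818-54100877 on the plus strand, Ak4 at chr4:101419461-101419520 on the plus strand, Ldha at chr7:46845631-46845690 on the plus strand and Pgk1 at chrX:106186922-106186981 on the plus strand, with matches in capitals.
P4ha2: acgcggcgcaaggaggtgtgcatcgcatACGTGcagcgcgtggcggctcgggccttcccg
Ak4: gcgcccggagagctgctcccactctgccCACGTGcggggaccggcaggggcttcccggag
Ldha: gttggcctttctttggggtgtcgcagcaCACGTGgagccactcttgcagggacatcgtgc
Pgk1: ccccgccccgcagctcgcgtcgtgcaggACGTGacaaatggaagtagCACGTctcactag
In Ak4 and Ldha the core lay within the palindromic E-box and so matched on both strands, and in Pgk1 it occurred on each strand at separate places. The shares of all promoters given above are not matched for base composition. Both lists were made of known pathway members, so their shares say nothing about carbacyclin.

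The fall of most of these genes was smaller in cells expressing IK6 by the test of the difference. There, 3 glycolysis genes rose and 3 fell, with a median of 0.01, and 3 hypoxia genes rose and 2 fell, with a median of -0.04. Over all tested genes 20.8% rose and 18.8% fell in IK6 cells. By the interaction test 16 of 22 glycolysis genes and 12 of 20 hypoxia genes were more negative in MIG cells, on a background of 5.66%. Ndrg1 measured 50.8, 56.9 and 46.2 CPM in IK6 cells with carbacyclin, against 53.8, 53.6, 56.4 and 54.1 CPM in IK6 cells with DMSO, and these overlap (-0.09 ± 0.11, interaction -2.73 ± 0.15, adjusted p = 1.44e-14). Pfkp fell in both, by less in IK6 cells (-0.96 ± 0.08, interaction -0.998 ± 0.11, adjusted p = 2.58e-08). Slc16a3 differed by 0.28 ± 0.16 in IK6 cells and did not pass there (interaction -1.64 ± 0.22, adjusted p = 1.63e-06), and Bnip3 (ENSMUSG00000078566), a mitophagy receptor, fell in MIG cells (-0.75 ± 0.16) and rose in IK6 cells (0.72 ± 0.17, interaction -1.47 ± 0.23, adjusted p = 2.32e-05). Its fall in MIG cells did not pass in the 2-group fit (adjusted p = 0.0571). The starting levels also differed: with DMSO, Ndrg1 averaged 73.3 CPM in MIG cells and 54.5 CPM in IK6 cells, and Pfkp 595 CPM in MIG cells and 358 CPM in IK6 cells.

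**Figure D3:**
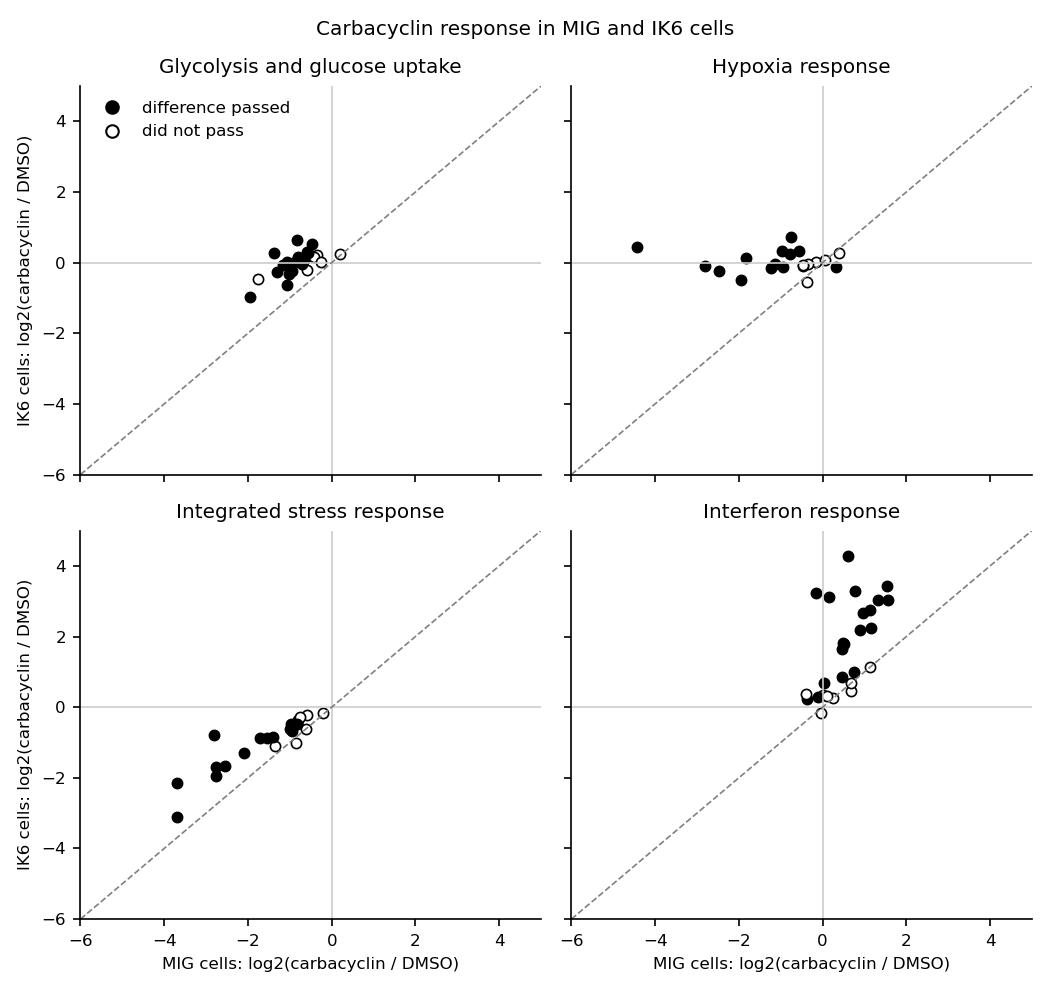
Log2 difference of carbacyclin over DMSO in MIG cells (x axis) and in IK6 cells (y axis), 1 point per tested gene, for 4 lists; filled points passed the test of the difference between MIG and IK6 cells (adjusted p below 0.05) and the diagonal marks equal differences. Most glycolysis and hypoxia genes lie left of the vertical axis, with differences in IK6 cells between -0.96 and 0.63 for glycolysis and between -0.56 and 0.72 for hypoxia, stress response genes lie below 0 on both axes and those that passed sit above the diagonal, and the interferon genes that passed sit above the diagonal.

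The pre-B cell receptor and B-lineage surface genes changed in both directions. Of 28 tested members, 13 rose and 8 fell, with a median of 0.15. Cd22 (ENSMUSG00000030577), an inhibitory receptor of the B lineage, measured 75.6, 81.6, 83.2 and 68.5 CPM with carbacyclin, against 369.6, 369.6, 315 and 355 CPM with DMSO (log2 difference -2.19 ± 0.066 (SE), adjusted p = 4.20e-23). Igll1 (ENSMUSG00000075370), a component of the surrogate light chain, rose to 1324 CPM with carbacyclin, against 817 CPM with DMSO (0.70 ± 0.11), as did its partner Vpreb1 (ENSMUSG00000059305) (0.69 ± 0.23), whose carbacyclin and DMSO libraries overlapped and which did not pass without carbacyclin replicate 4 (0.34) or in the 2-group fit (adjusted p = 0.168). The adaptor Blnk (ENSMUSG00000061132) (0.72 ± 0.046) and Pik3cd (ENSMUSG00000039936), the leukocyte PI3 kinase subunit (0.90 ± 0.062), rose, and Fcrla (ENSMUSG00000038421), an intracellular Fc receptor-like protein, fell (3.19 ± 0.828 CPM with carbacyclin and 16.1 ± 1.62 CPM with DMSO, -2.34 ± 0.13). The complement receptor Cr2 (ENSMUSG00000026616) fell by 1.38 on the log2 scale and Il7r (ENSMUSG00000003882), the receptor for interleukin 7, rose (0.38 ± 0.092).

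Transcription factors of the B lineage were also divided, with 10 of 23 higher and 8 lower. Lef1 (ENSMUSG00000027985), a mediator of Wnt signaling in early B cells, rose to 209 CPM with carbacyclin, against 104 CPM with DMSO (log2 difference 1.01 ± 0.057 (SE), adjusted p = 4.29e-16). Ikzf4 (ENSMUSG00000002578) (1.29 ± 0.13), Runx1 (ENSMUSG00000022952) (0.90 ± 0.086), Bcl11a (ENSMUSG00000000861) (0.70 ± 0.087) and Spib (ENSMUSG00000008193) (0.65 ± 0.055) rose. Irf8 (ENSMUSG00000041515) (-0.90 ± 0.067), Irf4 (ENSMUSG00000021356) (-0.68 ± 0.062), Bach2 (ENSMUSG00000040270) (-0.40 ± 0.11) and Pou2f2 (ENSMUSG00000008496) (-1.37 ± 0.14) fell, of which Bach2 did not pass in the 2-group fit (adjusted p = 0.116). Ikzf1 (ENSMUSG00000018654), which encodes IKAROS, was measured at 234 ± 12.7 CPM with carbacyclin and 264 ± 6.07 CPM with DMSO and fell by 0.17 on the log2 scale, and Pax5 (ENSMUSG00000014030) did not pass (-0.002 ± 0.13).

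All of the V(D)J recombination genes that passed the test rose, 6 of 10. Rag1 (ENSMUSG00000061311), a subunit of the recombinase, measured 41.9, 39.4, 38.96 and 29.4 CPM with carbacyclin, against 9.27, 8.18, 8.93 and 7.62 CPM with DMSO (log2 difference 2.14 ± 0.10 (SE), adjusted p = 1.76e-18). Rag2 (ENSMUSG00000032864), the other subunit, rose to 5.18 CPM with carbacyclin, against 2.11 CPM with DMSO (log2 difference 1.29 ± 0.11 (SE), adjusted p = 5.23e-12). Dntt (ENSMUSG00000025014), the terminal transferase that adds nucleotides at junctions, showed 227, 236, 197 and 342 CPM with carbacyclin, against 69.3, 68.4, 84.6 and 72.99 CPM with DMSO (log2 difference 1.76 ± 0.11 (SE), adjusted p = 1.03e-14). Dntt measured 127, 105 and 101 CPM in IK6 cells with carbacyclin, against 122, 114, 113 and 114 CPM in IK6 cells with DMSO, which did not pass (-0.06 ± 0.12), and the interaction was 1.82 ± 0.16 (adjusted p = 8.86e-10). Xrcc6 (ENSMUSG00000022471), the DNA end binding protein Ku70, rose (0.81 ± 0.054), as did the ligase Lig4 (ENSMUSG00000049717) (0.33 ± 0.063) and the nuclease Artemis, encoded by Dclre1c (ENSMUSG00000026648) (0.55 ± 0.13, and adjusted p = 0.0622 in the 2-group fit).

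MHC class II genes were divided, with 2 of 11 higher and 4 lower. Cd74 (ENSMUSG00000024610), the invariant chain, measured 472, 539, 499.7 and 701 CPM with carbacyclin, against 60.4, 62.4, 71.1 and 63.4 CPM with DMSO (log2 difference 3.10 ± 0.11 (SE), adjusted p = 2.21e-21). H2-Ob (ENSMUSG00000041538), a modulator of peptide loading, fell to 113 CPM with carbacyclin, against 229 CPM with DMSO (log2 difference -1.01 ± 0.046 (SE), adjusted p = 1.52e-18). The antigen-presenting chains H2-Ab1 (ENSMUSG00000073421) (21.1 ± 9.63 CPM with carbacyclin and 61.99 ± 16.99 CPM with DMSO, -1.55 ± 0.22), H2-Aa (ENSMUSG00000036594) (-2.45 ± 0.28) and H2-Eb1 (ENSMUSG00000060586) (-2.82 ± 0.33) fell, the last 2 at levels below 1 CPM. Ciita (Ciita.16.p), the master coactivator of the class, was measured at 0.313 ± 0.116 CPM with carbacyclin and 0.379 ± 0.0298 CPM with DMSO and did not pass (-0.42 ± 0.24). Among stem and progenitor genes, 4 of 10 rose and 4 fell: Flt3 (ENSMUSG00000042817), a progenitor cytokine receptor, rose to 5.40 CPM with carbacyclin, against 0.886 CPM with DMSO (2.61 ± 0.17), and Erg (ENSMUSG00000040732) rose (1.24 ± 0.059), while Lmo2 (ENSMUSG00000032698) (-1.40 ± 0.08), Angpt1 (ENSMUSG00000022309) (-1.88 ± 0.14) and Cd93 (ENSMUSG00000027435) (-0.73 ± 0.067) fell.

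In the adhesion list an integrin chain and fibronectin rose most. Itga3, an integrin chain outside this list, rose by 4.83 on the log2 scale and is described below. Itgb3 (ENSMUSG00000020689), the integrin beta 3 chain, measured 246, 240.2, 227 and 203 CPM with carbacyclin, against 22.2, 23.1, 22.3 and 23.9 CPM with DMSO (log2 difference 3.32 ± 0.064 (SE), adjusted p = 6.59e-28). Fn1 (ENSMUSG00000026193), fibronectin, rose to 2.71 CPM with carbacyclin, against 0.251 CPM with DMSO (3.34 ± 0.29), and Pecam1 (ENSMUSG00000020717) rose (0.63 ± 0.051). The chemokine receptor Ccr2 (ENSMUSG00000049103) fell (0.331 ± 0.0834 CPM with carbacyclin and 2.51 ± 0.146 CPM with DMSO, -2.81 ± 0.17), as did the integrin chains Itga6 (ENSMUSG00000027111) (-0.54 ± 0.068) and Itgb1 (ENSMUSG00000025809) (-0.52 ± 0.082) and the hyaluronan receptor Cd44 (ENSMUSG00000005087) (-0.69 ± 0.06). The partner chain Itgav (ENSMUSG00000027087) was measured at 44.3 ± 9.42 CPM with carbacyclin and 45.97 ± 5.44 CPM with DMSO and did not pass (-0.06 ± 0.11). In all, 9 of 27 members rose and 6 fell.

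Several mitosis genes fell and several DNA replication genes rose. Of 32 S phase and mitosis genes, 15 fell and 9 rose, with a median of -0.04. Cenpf (ENSMUSG00000026605), a kinetochore protein, measured 116, 77.3, 93.9 and 51.3 CPM with carbacyclin, against 224, 228, 151 and 221 CPM with DMSO (-1.29 ± 0.18). Ccna2 (ENSMUSG00000027715), cyclin A2, fell to 79.5 CPM with carbacyclin, against 134 CPM with DMSO (log2 difference -0.76 ± 0.063 (SE), adjusted p = 7.09e-12), as did the checkpoint kinase Bub1 (ENSMUSG00000027379) (-0.97 ± 0.094) and its relative Bub1b (ENSMUSG00000040084) (-0.56 ± 0.053), Aurkb (ENSMUSG00000020897) (-0.68 ± 0.066), Mki67 (ENSMUSG00000031004) (-0.99 ± 0.16) and Foxm1 (ENSMUSG00000001517) (-0.88 ± 0.10). The replication genes Tyms (ENSMUSG00000025747) (0.60 ± 0.11), Cdt1 (ENSMUSG00000006585) (0.49 ± 0.087), Mcm4 (ENSMUSG00000022673) (0.39 ± 0.058) and Mcm5 (ENSMUSG00000005410) (0.38 ± 0.11, and adjusted p = 0.0546 in the 2-group fit) rose, and Rrm2 (ENSMUSG00000020649) did not pass (-0.01 ± 0.092). In bulk RNA, fewer cells in a phase and less RNA per cell cannot be told apart.

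Regulators of the cycle outside this list included Cdkn1a (ENSMUSG00000023067), which encodes the kinase inhibitor p21 and measured 147, 174, 168 and 206 CPM with carbacyclin, against 42.6, 43.6, 57.3 and 46.9 CPM with DMSO (log2 difference 1.87 ± 0.11 (SE), adjusted p = 1.07e-15). Btg1 (ENSMUSG00000036478) rose (0.90 ± 0.075), while the inhibitor Cdkn2c (ENSMUSG00000028551) (-0.89 ± 0.072), Ccng2 (ENSMUSG00000029385) (-0.89 ± 0.063), Foxo3 (ENSMUSG00000048756) (-0.65 ± 0.07) and Rb1 (ENSMUSG00000022105) (-0.68 ± 0.094) fell. Cdkn2a (ENSMUSG00000044303) was measured at 76.6 ± 34.96 CPM with carbacyclin and 77.7 ± 25.3 CPM with DMSO (-0.02 ± 0.23). 5 of 22 members of that list rose and 5 fell. In the MYC network, Mxd1 (ENSMUSG00000001156), whose product replaces MYC at the partner MAX, measured 159, 159.6, 152 and 164 CPM with carbacyclin, against 17.9, 19.96, 19.4 and 20.96 CPM with DMSO (log2 difference 3.02 ± 0.066 (SE), adjusted p = 3.69e-27). Mxi1 (ENSMUSG00000025025), of the same family, fell (-0.97 ± 0.079). Myc (ENSMUSG00000022346) rose by a small amount (363 ± 12.3 CPM with carbacyclin and 296 ± 10.9 CPM with DMSO, 0.30 ± 0.055), and ribosome assembly genes such as Nolc1 (ENSMUSG00000015176) (0.45 ± 0.047), Rrp12 (ENSMUSG00000035049) (0.48 ± 0.06) and Nop58 (ENSMUSG00000026020) (0.30 ± 0.065) rose, as did Srm (ENSMUSG00000006442), spermidine synthase (0.70 ± 0.15). The list had 13 of 25 higher and 3 lower.

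**Figure D4:**
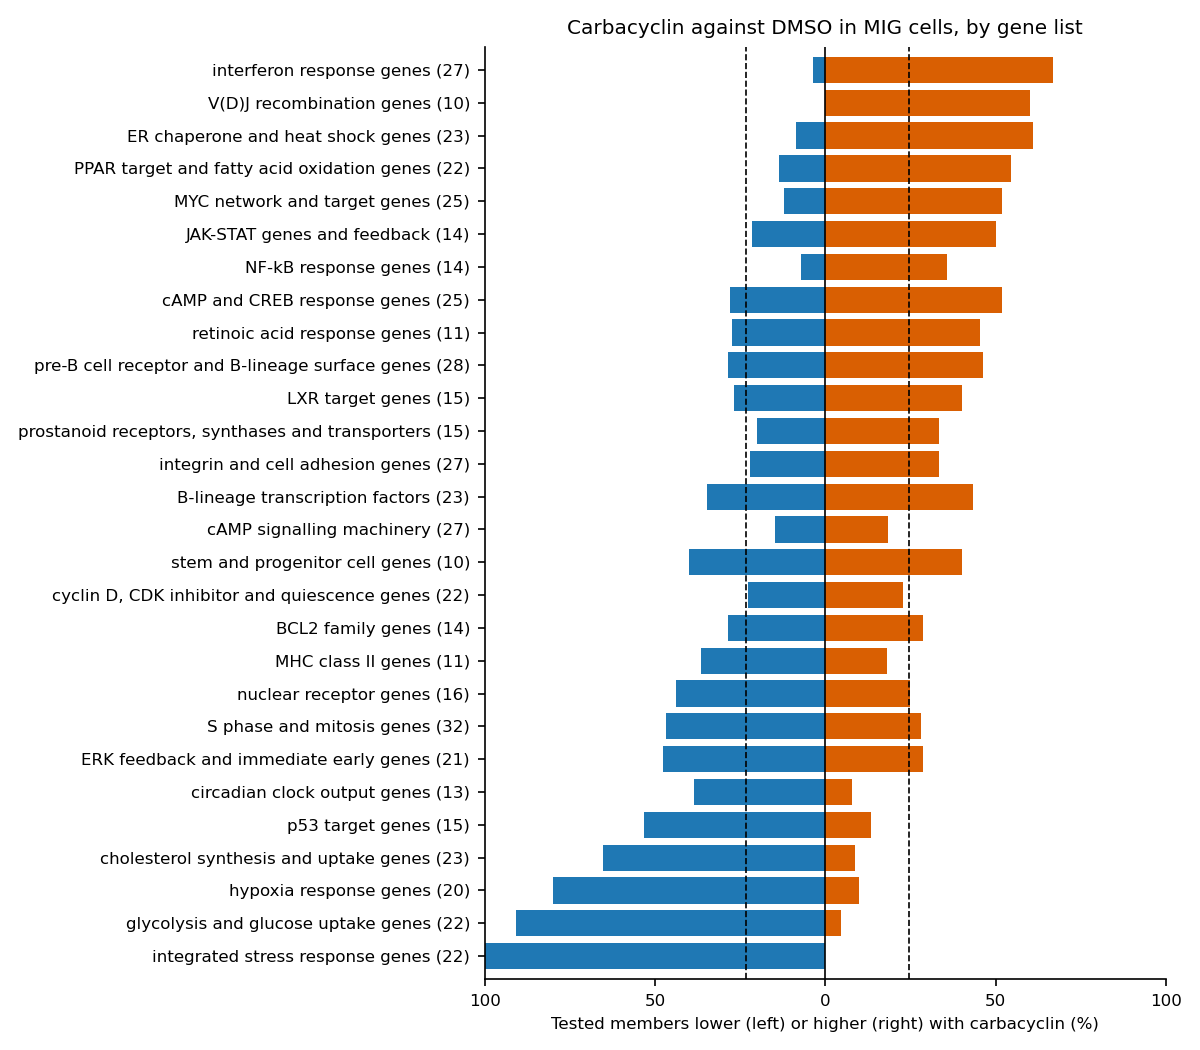
Percent of tested members that were higher (right, orange) and lower (left, blue) with carbacyclin than with DMSO in MIG cells, for 28 gene lists, with the number of tested members beside each name; dashed lines mark the share over all tested genes, 24.7% higher and 23.3% lower. The stress response, glycolysis and hypoxia lists reach furthest to the left, and the interferon, heat shock and V(D)J lists furthest to the right.

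BCL2 family genes that promote cell death moved in both directions. Bmf (ENSMUSG00000040093), a BH3-only killer gene, measured 108, 112, 106 and 131 CPM with carbacyclin, against 39.4, 42.5, 47.8 and 45.9 CPM with DMSO (log2 difference 1.38 ± 0.062 (SE), adjusted p = 1.17e-18). Bcl2l11 (ENSMUSG00000027381), which encodes BIM, showed 292, 285, 281 and 229 CPM with carbacyclin, against 116, 115, 103 and 117 CPM with DMSO (log2 difference 1.27 ± 0.066 (SE), adjusted p = 4.35e-17). By contrast Bbc3 (ENSMUSG00000002083), which encodes PUMA, showed 2.09, 2.96, 2.77 and 2.77 CPM with carbacyclin, against 13.7, 14.5, 18.7 and 14.8 CPM with DMSO (log2 difference -2.51 ± 0.17 (SE), adjusted p = 7.78e-14), and Pmaip1 (ENSMUSG00000024521), which encodes NOXA, fell (-1.14 ± 0.083). The survival gene Mcl1 (ENSMUSG00000038612) rose (0.58 ± 0.073), while Bcl2 (ENSMUSG00000057329) (-0.01 ± 0.14) and Bcl2l1 (ENSMUSG00000007659) (0.08 ± 0.10) did not pass. In IK6 cells Bcl2 rose (1.29 ± 0.15, interaction -1.29 ± 0.20, adjusted p = 2.58e-05). Of 15 p53 target genes, 8 fell and 2 rose. Those that fell included Phlda3 (ENSMUSG00000041801) (-2.32 ± 0.17), Fas (ENSMUSG00000024778) (-1.40 ± 0.16), Zmat3 (ENSMUSG00000027663) (-0.73 ± 0.10) and Ccng1 (ENSMUSG00000020326) (-0.44 ± 0.11), and those that rose were Cdkn1a and Plk2 (ENSMUSG00000021701) (1.82 ± 0.11). Sesn2, which fell, is held by both the p53 and the stress response lists, and Mdm2 (ENSMUSG00000020184) did not pass (-0.23 ± 0.13), although it did without carbacyclin replicate 1 (-0.33).

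Genes known to lie downstream of BCR-ABL1 signaling were divided. In the JAK-STAT list 7 of 14 rose and 3 fell. The feedback genes Cish (ENSMUSG00000032578) (201 ± 20.1 CPM with carbacyclin and 101 ± 8.49 CPM with DMSO, 0.99 ± 0.071), Socs3 (ENSMUSG00000053113) (221 ± 28.7 CPM with carbacyclin and 92.7 ± 8.83 CPM with DMSO, 1.25 ± 0.10) and Socs1 (ENSMUSG00000038037) (0.93 ± 0.20) rose, as did Pim2 (ENSMUSG00000031155), a survival kinase (1.15 ± 0.093), and Stat5a (ENSMUSG00000004043) (0.63 ± 0.061), while Jak1 (ENSMUSG00000028530) fell (-0.54 ± 0.067). In the ERK list 10 of 21 fell and 6 rose. Dusp5 (ENSMUSG00000034765), a nuclear ERK phosphatase, measured 223, 253, 242 and 306 CPM with carbacyclin, against 62.8, 67.1, 72.03 and 66.3 CPM with DMSO (log2 difference 1.93 ± 0.083 (SE), adjusted p = 2.88e-19). Egr2 (ENSMUSG00000037868), an early growth response factor, showed 0.0523, 0.0725, 0.0432 and 0.0319 CPM with carbacyclin, against 0.834, 1.08, 1.06 and 1.19 CPM with DMSO (log2 difference -4.19 ± 0.33 (SE), adjusted p = 1.44e-12). The ERK-responsive factor Etv4 (ENSMUSG00000017724) (2.73 ± 0.226 CPM with carbacyclin and 10.9 ± 0.237 CPM with DMSO, -1.98 ± 0.10) and the feedback inhibitors Spry4 (ENSMUSG00000024427) (-2.12 ± 0.14), Spred1 (ENSMUSG00000027351) (-1.10 ± 0.086) and Dusp6 (ENSMUSG00000019960) (-0.44 ± 0.055) fell, and Jun (ENSMUSG00000052684) rose (1.51 ± 0.086).

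In the NF-kB list 5 of 14 rose and 1 fell. Tnfaip3 (ENSMUSG00000019850), the feedback inhibitor A20, measured 124, 124, 111 and 109 CPM with carbacyclin, against 40.5, 38.5, 37.5 and 40.9 CPM with DMSO (log2 difference 1.57 ± 0.059 (SE), adjusted p = 1.07e-20), and Bcl3 (ENSMUSG00000053175) (1.97 ± 0.15), Nfkbie (ENSMUSG00000023947) (0.88 ± 0.054) and Icam1 (ENSMUSG00000037405) (0.68 ± 0.065) rose, whereas Nfkbia (ENSMUSG00000021025) fell (-0.42 ± 0.14), though not past the threshold without carbacyclin replicate 1 (-0.32) or DMSO replicate 3 (-0.29), or in the 2-group fit (adjusted p = 0.085). Interferon genes were moderately higher: 18 of 27 rose and 1 fell, with a median of 0.52. Irf9 (ENSMUSG00000002325) (0.75 ± 0.052), Irf1 (ENSMUSG00000018899) (0.69 ± 0.054), Oas1a (ENSMUSG00000052776) (1.17 ± 0.13) and Oasl2 (ENSMUSG00000029561) (0.89 ± 0.10) rose, and Isg20 (ENSMUSG00000039236) fell (-0.38 ± 0.13), though not past the threshold without carbacyclin replicate 1 (-0.28) or 3 (-0.33) or DMSO replicate 3 (-0.25), or in the 2-group fit (adjusted p = 0.126). Without the libraries of high ribosomal protein share 2 members fell. In IK6 cells 24 rose, 0 fell and the median was 1.64, where 20.8% of all tested genes rose and 18.8% fell. By the interaction test 19 of 27 were more negative in MIG cells, on a background of 5.66%. Among them were Irf7 (ENSMUSG00000025498) (1.32 ± 0.15 in MIG cells, 3.04 ± 0.18 in IK6 cells, interaction adjusted p = 2.96e-06) and Mx1 (ENSMUSG00000000386) (-0.16 ± 0.19 in MIG cells, which did not pass, 3.24 ± 0.25 in IK6 cells, interaction adjusted p = 2.94e-09). Among clock genes, 1 of 13 rose and 5 fell: the repressors Bhlhe41 (ENSMUSG00000030256) (-2.05 ± 0.089) and Bhlhe40 (ENSMUSG00000030103) (-1.35 ± 0.082) fell and Arntl (ENSMUSG00000055116), which encodes BMAL1, rose (0.74 ± 0.058).

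The largest rises, among genes of at least 1 CPM on average in either group whose libraries did not overlap, were mostly in genes of low level with DMSO: 12 of the 14 averaged below 1 CPM there, and Lrp4 and Tgm2 did not. Dmbt1 (ENSMUSG00000047517), a secreted scavenger receptor protein, measured 8.95, 9.11, 8.25 and 6.98 CPM with carbacyclin, against 0.0321, 0.0847, 0 and 0.0677 CPM with DMSO (log2 difference 7.23 ± 0.31 (SE), adjusted p = 2.40e-19). Ret (ENSMUSG00000030110), a receptor tyrosine kinase, had 600 counts in the carbacyclin libraries and 3 in the DMSO libraries (ratio 161, exact 95% binomial interval 54.8 to 783), and Xirp1 (ENSMUSG00000079243), an actin-binding muscle protein, had 243 with carbacyclin and 2 with DMSO (ratio 97.8, interval 26.8 to 812). Lrp4 (ENSMUSG00000027253), an LDL receptor relative and agrin coreceptor, was measured at much higher counts: 161, 159, 153 and 107 CPM with carbacyclin, against 4.27, 4.55, 4.74 and 4.50 CPM with DMSO (log2 difference 5.002 ± 0.13 (SE), adjusted p = 2.56e-25). The receptor phosphatase Ptpru (ENSMUSG00000028909) (14.1 ± 2.58 CPM with carbacyclin and 0.186 ± 0.0951 CPM with DMSO) and Itga3 (ENSMUSG00000001507), an integrin chain (14.2 ± 2.08 CPM with carbacyclin and 0.483 ± 0.138 CPM with DMSO), rose by 6.12 and 4.83 on the log2 scale. Timp3 (ENSMUSG00000020044), a metalloproteinase inhibitor (4.95 ± 0.23), Heyl (ENSMUSG00000032744), a Notch target (4.74 ± 0.16), Lzts1 (ENSMUSG00000036306) (4.90 ± 0.23), C1qtnf1 (ENSMUSG00000017446) (4.85 ± 0.21), Lrrc10b (ENSMUSG00000090291) (5.58 ± 0.43), Slc5a9 (ENSMUSG00000028544), a sodium-coupled sugar transporter (4.92 ± 0.42), the bradykinin receptor Bdkrb2 (ENSMUSG00000021070) (4.91 ± 0.47) and Tgm2 complete the 14. The difference was 5.50 for Bdkrb2 without DMSO replicate 4 and 5.78 for Slc5a9 without DMSO replicate 2.

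The largest falls by the same rule began with Crisp3 (ENSMUSG00000025433), a cysteine-rich secretory protein, at 0.209, 0.102, 0.194 and 0.255 CPM with carbacyclin, against 9.66, 10.1, 9.37 and 8.74 CPM with DMSO (log2 difference -5.77 ± 0.20 (SE), adjusted p = 1.36e-21). Cmah (ENSMUSG00000016756), the hydroxylase of sialic acid, fell to 11.0 CPM with carbacyclin, against 124 CPM with DMSO (log2 difference -3.49 ± 0.14 (SE), adjusted p = 2.35e-20). Trib2 (ENSMUSG00000020601), a pseudokinase, fell to 2.31 CPM with carbacyclin, against 30.7 CPM with DMSO (log2 difference -3.71 ± 0.10 (SE), adjusted p = 8.16e-25), and Tox (ENSMUSG00000041272), a nuclear factor of T cell development, to 1.06 CPM with carbacyclin, against 17.9 CPM with DMSO (-4.09 ± 0.13). Cd28 (ENSMUSG00000026012), the T cell costimulator (0.0752 ± 0.0537 CPM with carbacyclin and 2.19 ± 0.409 CPM with DMSO, -4.65 ± 0.29), Slc6a9 (ENSMUSG00000028542), a glycine transporter (-4.12 ± 0.16), Slco5a1 (ENSMUSG00000025938) (-4.31 ± 0.17), Cox6a2 (ENSMUSG00000030785), a muscle-type cytochrome oxidase subunit (-4.78 ± 0.31), Chst2 (ENSMUSG00000033350), a sulfotransferase (-3.82 ± 0.32), Zfp697 (ENSMUSG00000050064) (-3.64 ± 0.26) and Dnahc5 (ENSMUSG00000022262), a ciliary dynein (-3.48 ± 0.38) follow, with Cth and Nupr1, described above, and Egr2, described with the ERK genes. The difference was -4.55 for Chst2 without carbacyclin replicate 3 and -4.08 for Dnahc5 without carbacyclin replicate 4. Of these 14 falls and 14 rises, Lrp4 was measured at 121 ± 9.82 CPM in IK6 cells with carbacyclin (n = 3) and 3.23 ± 0.109 CPM in IK6 cells with DMSO (n = 4), a difference of 5.23 ± 0.13 (interaction -0.23 ± 0.17, adjusted p = 0.522). All 28 also passed in IK6 cells in the same direction. The interaction passed for 12 of the 28, 5 rises and 7 falls, each larger in MIG cells, the cells in which the 28 were chosen for their size. Slc6a9 fell by less in IK6 cells (-2.50 ± 0.14, interaction -1.62 ± 0.22, adjusted p = 1.95e-06), as did Trib2 (-2.59 ± 0.10, interaction -1.12 ± 0.13, adjusted p = 2.32e-07).

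In IK6 cells carbacyclin changed 6218 genes (39.6%), 3259 higher (20.8%) and 2959 lower (18.8%), against separate DMSO libraries. The test of the difference between the 2 responses called 1386 genes (8.83%), of which 497 were more positive in MIG cells (3.17%) and 889 more negative (5.66%). That count was 2527 without MIG carbacyclin replicate 4, 2253 without the 3 MIG libraries of high ribosomal protein share, 2851 with that share as a covariate and 889 with only the 4 groups in the fit. Among genes of at least 1 CPM on average in 1 of the 4 groups, the largest interactions on the negative side were those of Slc26a9 (ENSMUSG00000042268), an anion transporter, Lrrc55, Pdgfrb (ENSMUSG00000024620), a growth factor receptor, Stc1 (ENSMUSG00000014813), stanniocalcin (-4.34 ± 0.20), and Fscn1 (ENSMUSG00000029581), an actin bundler (-4.14 ± 0.54). Slc26a9 averaged 0.123 CPM in MIG cells with carbacyclin and 0.0275 CPM in MIG cells with DMSO, and 12.04 CPM in IK6 cells with carbacyclin and 0.00803 CPM in IK6 cells with DMSO. Pdgfrb averaged 0.0427 CPM in MIG cells with carbacyclin and 0.0160 CPM in MIG cells with DMSO, and 4.50 CPM in IK6 cells with carbacyclin and 0.0244 CPM in IK6 cells with DMSO, and 3 of the 4 MIG DMSO libraries held 0 counts. On the positive side were Fgfr2 (ENSMUSG00000030849) (3.40 ± 0.36), Dmbt1 (2.68 ± 0.54), Slc17a8 (ENSMUSG00000019935) (2.22 ± 0.22), Slc5a9 (2.18 ± 0.58) and Slpi (ENSMUSG00000017002), a protease inhibitor (2.07 ± 0.37). The interaction of Slc5a9 was 3.05 without MIG DMSO replicate 2 and did not pass with only the 4 groups in the fit (adjusted p = 0.0624). Slc17a8, a vesicular glutamate transporter, fell in both cell types, to 4.54 CPM with carbacyclin, against 34.2 CPM with DMSO in MIG cells, and to 0.277 CPM with carbacyclin, against 10.0 CPM with DMSO in IK6 cells. The IK6 DMSO level of this gene was thus lower than the MIG DMSO level.

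NOE, at the same dose in the same MIG cells, gave a profile that differed from that of carbacyclin in part and was alike in part. Carbacyclin and NOE differed in 8170 genes (52%), with 4201 higher with carbacyclin (26.8%) and 3969 lower (25.3%). The count was 5233 with only those 2 groups in the fit. All 32 S phase and mitosis genes were higher with carbacyclin than with NOE, with a median of 1.16, and 21 of 25 MYC network genes were higher and 3 lower. Ccna2 measured 79.5 ± 5.45 CPM with carbacyclin and 35.7 ± 3.15 CPM with NOE (log2 difference 1.16 ± 0.064 (SE), adjusted p = 3.77e-16). Crem (2.08 ± 0.078) and Cpt1a (3.06 ± 0.053) were higher with carbacyclin, and 14 of 22 PPAR and fatty acid oxidation genes were higher and 1 lower. Glycolysis (17 of 22 lower, 1 higher) and hypoxia genes (17 of 20 lower, 1 higher) were lower with carbacyclin. Stress response (11 of 22 lower, 6 higher, median -0.24) and cholesterol genes (7 of 23 lower, 4 higher, median 0.03) differed less from NOE than from DMSO. Of 15 prostanoid genes 3 were higher with carbacyclin than with NOE and 6 lower, and of 27 cyclic AMP machinery genes 5 were higher and 7 lower. Adcy6 (-0.66 ± 0.15) and Tbxas1 (-1.01 ± 0.25), which rose against DMSO, were lower with carbacyclin than with NOE, while Adcy3 (0.32 ± 0.085) was higher. Of the 14 largest falls given above, all but Dnahc5 also averaged lower with NOE than with DMSO, a difference that was not tested. Tox averaged 1.05 CPM with NOE and 17.9 CPM with DMSO, and Cmah 10.8 CPM with NOE and 124 CPM with DMSO. Of the 14 largest rises, all but Xirp1 averaged higher with NOE than with DMSO, which was not tested either. Tgm2 averaged 63.1 CPM with NOE and 9.34 CPM with DMSO, and Lrp4 4.61 CPM with NOE and 4.52 CPM with DMSO. All 14 were higher with carbacyclin than with NOE by the test. Rag1 measured 41.9, 39.4, 38.96 and 29.4 CPM with carbacyclin, against 66.5, 71.4, 80.9 and 79.6 CPM with NOE, so that it was lower with carbacyclin than with NOE (log2 difference -0.995 ± 0.09 (SE), adjusted p = 5.40e-11).

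The genes with the largest difference between the compounds were Enpp6 (ENSMUSG00000038173), a choline-specific phosphodiesterase (12.1 ± 0.672 CPM with carbacyclin and 0.0651 ± 0.0427 CPM with NOE), Jag2 (ENSMUSG00000002799), a Notch ligand (232 ± 34.9 CPM with carbacyclin and 4.41 ± 0.424 CPM with NOE), the embryonic globin gene Hbb-bh1 (ENSMUSG00000052217) (2.73 ± 1.49 CPM with carbacyclin and 0.0156 ± 0.0181 CPM with NOE), Dmbt1 and Xirp1 on the higher side. Enpp6 averaged 11.7 CPM with DMSO, close to the carbacyclin level, whereas Jag2 averaged 10.8 CPM with DMSO and was higher with carbacyclin than with either. On the lower side were Rprm (ENSMUSG00000075334) (-4.45 ± 0.27), Slc35d3 (ENSMUSG00000050473) (-4.43 ± 0.35), Itln1 (ENSMUSG00000038209) (-4.04 ± 0.33), the interferon-inducible GTPase Gbp8 (ENSMUSG00000034438) (-3.96 ± 0.17) and Dlc1 (ENSMUSG00000031523) (-3.85 ± 0.31). The difference of Slc35d3 was -5.02 without carbacyclin replicate 2. The globin genes Hbb-b1 (ENSMUSG00000052305) and Hbb-b2 (ENSMUSG00000073940), whose near-identical copies may share reads, were higher with carbacyclin than with NOE (3.30 ± 0.31 and 3.33 ± 0.28) and than with DMSO (1.09 ± 0.27 and 0.84 ± 0.25), though Hbb-b2 did not pass against DMSO without carbacyclin replicate 4 (0.28), nor did either gene in the 2-group fit (adjusted p = 0.0956 for Hbb-b1 and 0.189 for Hbb-b2). Without the libraries of high ribosomal protein share the difference of Hbb-b2 from NOE was 2.73.

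The labelled cell type could be checked against its markers. All 10 pre-B markers averaged at least 1 CPM in both groups, and their summed level ran from 6220 to 9610 CPM with carbacyclin and from 4780 to 6280 CPM with DMSO (exact two-sided permutation p = 0.0571, adjusted 0.128 over the 9 values per library). 7 of the 10 rose. Most markers of each other cell type averaged below 1 CPM in both groups, though a few carried larger sums. The 14 myeloid markers summed to 10.7 to 19.5 CPM with carbacyclin and 5.11 to 5.93 CPM with DMSO (p = 0.0286, adjusted 0.0858, exact permutation test), with Fcgr3 (ENSMUSG00000059498) (4.27 ± 1.62 CPM with carbacyclin and 0.785 ± 0.198 CPM with DMSO), Lyz2 (ENSMUSG00000069516) (3.54 ± 2.11 CPM with carbacyclin and 0.621 ± 0.171 CPM with DMSO) and Itgam (ENSMUSG00000030786) (5.39 ± 0.346 CPM with carbacyclin and 3.35 ± 0.715 CPM with DMSO) carrying most of it, and S100a8, S100a9 and Ctsg at 0 counts with carbacyclin. Of the 5 myeloid markers tested, 4 rose and 1 fell (log2 difference -1.46). Csf3r, too low to test, had 2 counts with carbacyclin and 6 with DMSO. The 12 T and NK markers summed to 164 to 265 CPM with carbacyclin and 145 to 191 CPM with DMSO, nearly all of it Lck (ENSMUSG00000000409) (198 ± 43.2 CPM with carbacyclin and 141 ± 18.9 CPM with DMSO), while Zap70 (ENSMUSG00000026117) fell (2.22 ± 0.352 CPM with carbacyclin and 17.03 ± 1.43 CPM with DMSO, -2.91 ± 0.14) and Cd8a was at 0 counts in both groups. The 12 erythroid and megakaryocyte markers summed to 74.4 to 262 CPM with carbacyclin and 54.0 to 120 CPM with DMSO, mostly Hbb-b2 (112 ± 75.3 CPM with carbacyclin and 62.6 ± 26.6 CPM with DMSO), with Hba-a1 and Car1 at 0. The 11 stromal and endothelial markers summed to 90.8 to 99.1 CPM with carbacyclin and 59.0 to 64.6 CPM with DMSO, nearly all of it Pecam1 (95.5 ± 4.02 CPM with carbacyclin and 61.5 ± 2.38 CPM with DMSO), which B-lineage cells also express (p = 0.0286, adjusted 0.0858, exact permutation test). The part of these markers in the results above was not tested.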

How the data were processed

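RNA from mouse BCR-ABL1 pre-B cells was sequenced from TruSeq RNA version 2 libraries on an Illumina HiSeq, per the labels' protocols. Reads were aligned to mm9 with BWA 0.5.9 and counted with HTSeq, per the submitters' processing notes, and what was deposited are raw counts for each gene, by Ensembl or the files' own identifier, with no normalization. The sources used here do not say how reads were assigned, with or without strand or under which annotation, so overlapping and antisense genes could not be told apart. All 8 libraries of the comparison entered, with total counts of 18521726 to 69016668. No pair of libraries within a group agreed within sampling noise, so these totals alone do not give the precision.

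Differences came from edgeR 4.0.16 in R 4.3.3: filterByExpr (minimum count 10, total 15), TMM scaling, 1 quasi-likelihood model over 37 libraries in 10 groups (27 residual degrees of freedom) and Benjamini-Hochberg adjustment over 15699 genes. Standard errors are the log2 difference over the root of F. Counts were also simulated with the fitted spread, independently for each gene and library, with few genes changed, all of at least 1 CPM. On these the test called 56 of 67 genes changed 1.5-fold, 67 of 67 changed 2-fold, 66 of 66 changed 4-fold and 10 of 15499 unchanged genes. The simulation had no libraries that stood apart and far fewer changed genes than the data, so these rates may not hold for the comparison itself. For 195 symbols with several identifiers the row of highest level is named. Folds against groups at 0 counts use a floor of 3 counts over the group, and intervals and floors cover counting error only. Shares and marker sums were compared by exact permutation of libraries. Figures were drawn with matplotlib 3.10.9.

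The 28 gene lists, the marker lists and the comparison itself were chosen with earlier results of these data known. The naming rule took the 14 largest rises and falls past the threshold with at least 1 CPM and no overlap, the 5 largest each way for the IK6 and NOE comparisons, up to 4 members of each list by adjusted p, and all prostanoid and cyclic AMP genes. Other list members in the text were chosen after their values were seen, and a few genes of the lists are not reported here. So were the 6 promoter motifs searched (2 forms of the cyclic AMP element, 2 of the CARE element, the hypoxia core and a direct repeat), all of which are given, with sequences credited to RefSeq.

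Alternatives were DESeq2 1.42.0, 3 other scalings, 2 other filters, a fit of the compared groups alone, a replicate block, the ribosomal protein share as a covariate, and leaving out libraries.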

Additional observations from a re-analysis of the deposited data

Results flagged for a closer look

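Of 552 groups of 4 libraries (the carbacyclin and the DMSO libraries of 276 genes named in the text), 67 had 1 library that stood apart by Dixon's gap test at the 95% level. Chance gives such a gap in about 1 in 20 groups. Most of them were in the libraries of high ribosomal protein share, and the part of that share in them was not tested.

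The level in carbacyclin replicate 4 stood above the other 3 carbacyclin libraries for 20 genes, in CPM: Acaa2 at 82.7, Acadvl at 43.6, Acat2 at 74.5, Bdkrb2 at 1.88, Bnip3 at 450.3, Bnip3l at 409, Calr at 935, Ccng2 at 105 and Crem at 88.1. Also above them were Decr1 at 19.1, Etfdh at 65.3, Fabp5 at 111, Prkaca at 57.5, Prkar1a at 510.4, Ptges2 at 18.2, Ptgr1 at 124, Rgs2 at 76.3 and Slc25a20 at 86.1 CPM. Also above them were Tbxa2r at 21.8 and Xrcc6 at 248 CPM. The level in carbacyclin replicate 4 stood below the other 3 carbacyclin libraries for 7 genes, in CPM: Bcl2l11 at 229, Cmah at 7.42, Fasn at 549, Hk2 at 60.4, Ikzf4 at 12.4, Lrp4 at 107 and Ptger2 at 5.35. The level in carbacyclin replicate 1 stood below the other 3 carbacyclin libraries for 1 gene, in CPM: Myc at 345. The level in DMSO replicate 3 stood above the other 3 DMSO libraries for 26 genes, in CPM: Acaa2 at 48.4, Acat2 at 109, Asns at 229, Atf4 at 267, Bcl2l1 at 101, Ccng1 at 153, Cdkn2a at 115, Cdkn2c at 53.96 and Cpt2 at 19.99. Also above them were Decr1 at 22.1, Dusp6 at 280.4, Hbb-b2 at 102, Hmgcs1 at 178, Hspa5 at 628, Igll1 at 1006, Isg20 at 25.6, Itln1 at 1.57 and Mcm5 at 128 CPM. Also above them were Nfkbia at 53.2, Prkar1a at 379, Ptges2 at 13.4, Ptgir at 0.666, Ptgr1 at 74.1, Srm at 70.5, Vpreb1 at 1090.3 and Zap70 at 19.2 CPM. The level in DMSO replicate 3 stood below the other 3 DMSO libraries for 10 genes, in CPM: Akap9 at 173, Bcl2l11 at 103, Cenpf at 151, Cmah at 104, Creb1 at 140.3, Crtc1 at 30.8, Fosb at 0.353, Pde3b at 82.4 and Pou2f2 at 22.1. Also below them were Rb1 at 61.4 CPM. The level in DMSO replicate 1 stood above the other 3 DMSO libraries for 1 gene, in CPM: Timp3 at 0.385. The level in DMSO replicate 1 stood below the other 3 DMSO libraries for 1 gene, in CPM: Ak4 at 157. The level in DMSO replicate 4 stood below the other 3 DMSO libraries for 1 gene, in CPM: Fas at 1.12.

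The carbacyclin response differed between MIG and IK6 cells, by the interaction test of edgeR at an adjusted p below 0.05, for 27 of the 29 genes whose interaction the text gives. Over all tested genes 8.83% passed. Many of the 29 are given because theirs passed, so this count describes the choice of genes. The log2 response in MIG cells minus that in IK6 cells was negative for Angptl4 (-2.08), Atf3 (-1.36), Bcl2 (-1.29), Bnip3 (-1.47), Cth (-0.58), Fscn1 (-4.14), Gem (-0.51), Irf7 (-1.72), Mx1 (-3.40), Ndrg1 (-2.73), Nr4a3 (-2.40), Pfkp (-0.998), Plin2 (-0.66), Rora (-1.93), Slc16a3 (-1.64), Slc6a9 (-1.62), Stc1 (-4.34), Trib2 (-1.12) and Vldlr (-2.03). It was positive for Crem (0.46), Dmbt1 (2.68), Dntt (1.82), Fgfr2 (3.40), Pde4b (0.41), Slc17a8 (2.22), Slc5a9 (2.18) and Slpi (2.07). With only the 4 groups compared in the fit, 4 of these did not pass: Crem (adjusted p = 0.0709), Cth (adjusted p = 0.0633), Plin2 (adjusted p = 0.137) and Slc5a9 (adjusted p = 0.0624).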

How the results depend on the processing

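The count of genes that carbacyclin changed in MIG cells was 6972 to 9858 under 9 alternatives and 4521 with only the 2 groups in the fit, where 2150 were higher and 2371 lower. Leaving out each library in turn gave 6793 to 7947 genes, with 3455 to 4141 higher and 3323 to 3937 lower. Between IK6 groups the count was 5666 to 8688 under 10 alternatives and 4839 to 5788 with a library left out. The interaction count was 1045 to 1554 under 7 alternatives, 889 with only the compared groups, 2851 with the ribosomal protein share as a covariate, 2253 without the 3 libraries of high share, and 1149 to 2527 with a library left out, the highest without MIG carbacyclin replicate 4. Against NOE it was 7460 to 9931 under 9 alternatives, 5233 with only the compared groups and 7448 to 8498 with a library left out. In IK6 cells the fit of the compared groups alone gave more genes, 7570, than the 6218 of the fit over all groups. The cause of these shifts was not tested. No difference of a gene named in the text changed sign among those that passed. Of 265 such differences in MIG cells, 26 of 261 tested lost their call with only the 2 groups, each named beside its value, and at most 7 did under any other alternative. Dusp1, Fabp5 and Ptges3 lost it with no filter, Pde10a with total counts, and Angptl4, Dusp1 and Ptges3 without the 3 libraries of high share. Genes below about 1 CPM have wide errors that depth limits.

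With the replicate number as a block the counts were 7365 genes in MIG cells, 6033 in IK6 cells, 1290 for the interaction and 7964 against NOE. The block ended the calls of Angptl4 (0.50, adjusted p = 0.0512) and Dusp1 (0.36, adjusted p = 0.0602), by edgeR, and of no other gene named in the text. Deviations of same-numbered libraries correlated at 0.36, 0.18, -0.46 and -0.38 for numbers 1 to 4, and carbacyclin replicate 4 correlated best with DMSO replicate 3 (0.73). Those libraries stand apart from the rest of their groups, which can hide a pairing by number. Whether libraries of the same number share more than the number therefore cannot be told from these values.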

Other observations

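Replication-type histone genes, whose messages mostly lack a poly(A) tail and which the libraries held at a small share of counts, showed 21 higher, 5 lower and 23 that did not pass, of 49 tested, with a median log2 difference of 0.58. These genes were chosen by symbol and the examples after their values were seen. Hist1h2bj (ENSMUSG00000069300) averaged 1.76 ± 0.538 CPM with carbacyclin and 0.514 ± 0.334 CPM with DMSO (log2 difference 1.81 ± 0.31 (SE), adjusted p = 9.57e-06), and Hist1h4d (ENSMUSG00000061482) averaged 1.10 ± 0.307 CPM with carbacyclin and 0.414 ± 0.0974 CPM with DMSO (log2 difference 1.38 ± 0.27 (SE), adjusted p = 8.00e-05). Hist2h2be (ENSMUSG00000068854) went the other way, with 14.8 ± 0.762 CPM with carbacyclin and 27.2 ± 1.06 CPM with DMSO (log2 difference -0.88 ± 0.069 (SE), adjusted p = 1.44e-12). Histone genes of a cluster are near-identical copies, so their counts may be split between them.

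Of 16 tested genes of the mitochondrial genome, 12 rose and 2 fell. mt-Cytb (ENSMUSG00000064370), which encodes cytochrome b, rose most (log2 difference 0.86 ± 0.086 (SE), adjusted p = 3.59e-10), with 2526, 2699, 2771 and 2914 CPM with carbacyclin, against 1538, 1507, 1579.6 and 1368 CPM with DMSO. The genes that fell were the ribosomal RNA genes mt-Rnr1 (ENSMUSG00000064337) (-0.44 ± 0.15) and mt-Rnr2 (ENSMUSG00000064339) (-0.54 ± 0.16), of which mt-Rnr1 did not pass without carbacyclin replicate 2 (-0.33), carbacyclin replicate 3 (-0.35) or DMSO replicate 3 (-0.33), and neither passed in the fit of the 2 groups alone (adjusted p = 0.15 for mt-Rnr1 and 0.0543 for mt-Rnr2). Among nuclear ribosomal protein genes 1 of 82 rose and 0 fell, whereas 24 fell once the 3 libraries of high ribosomal protein share were left out.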
